A study of Homo sapiens with 12 samples.

Results

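The expressed long intergenic noncoding RNA genes are described here in HEK293T cells, an established human embryonic kidney line, 6 h after inhibition of METTL3 with STM2457. A gene was included when its symbol was LINC followed by digits only and its mean over the 8 RNA-seq libraries was at least 1 CPM, the usual scaling of counts to the library total, here without the ERCC spike-ins. This rule chose 126 gene IDs (125 symbols) out of 2266 LINC genes and 60662 genes in the count files. LINC01605 was present under 2 Ensembl IDs, and 1074 LINC genes had no count in any library. The members were thus chosen by their measured mean RNA level over both arms, so the levels themselves are a description. Just inside the threshold were LINC00937 at 1.00, LINC01431 at 1.01 and LINC02994 at 1.03 CPM, and just outside it were LINC01144 at 0.998, LINC02606 at 0.995 and LINC02802 at 0.991 CPM.

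The study measured translation and RNA level under short depletion of the N6-methyladenosine (m6A) mark. The DMSO arm received 0.2% DMSO and the STM2457 arm 20 µM STM2457 in 0.2% DMSO, both for 6 h in cells labelled WT. Cells of both arms had 10% more serum for the last 1 h, and their ribosomes were arrested with cycloheximide (100 µg/ml, 3 min). There were 4 poly(A)-selected RNA-seq libraries and 2 ribosome profiling (Ribo-seq) libraries per arm, all of a single cell line. Whether replicates are separate cultures is not stated in the labels, and the p-values reflect library-to-library variation that could be technical only.

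As background, a LINC symbol is a placeholder for a long RNA gene that lies between protein-coding genes and has no function-based name. Such RNAs are usually capped, spliced and polyadenylated like mRNA, yet many remain in the nucleus, where the RNA exosome and its adaptor complexes can degrade them. METTL3 is the catalytic subunit of the enzyme complex that writes m6A on mRNA and long noncoding RNA, and nuclear and cytoplasmic reader proteins such as YTHDC1 bind the mark.

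The 5′ regions of the largest changes are shown first, since they give the sequence at which these RNAs begin. They are RefSeq promoters (GRCh38.p14, 250 bases before to 50 after the start) of members with an entry in the RefSeq promoter table, 2 among the 4 largest increases and 2 among the 5 largest decreases. Capitals mark a CCAAT box (CCAAT) or a GC box (GGGCGG), each searched on both strands. LINC01123 (chr2:109986730-109987029, plus strand) and LINC01023 (chr5:108728212-108728511, minus strand) rose, and LINC00205 (chr21:45287802-45288101, plus strand) and LINC01560 (chrX:47482466-47482765, plus strand) fell.
LINC01123: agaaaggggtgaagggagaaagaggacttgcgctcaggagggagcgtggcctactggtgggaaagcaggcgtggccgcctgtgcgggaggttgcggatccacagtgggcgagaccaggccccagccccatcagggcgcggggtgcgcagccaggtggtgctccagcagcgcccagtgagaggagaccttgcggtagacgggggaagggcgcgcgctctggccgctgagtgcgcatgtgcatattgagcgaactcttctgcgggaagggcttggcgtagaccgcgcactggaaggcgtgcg
LINC01023: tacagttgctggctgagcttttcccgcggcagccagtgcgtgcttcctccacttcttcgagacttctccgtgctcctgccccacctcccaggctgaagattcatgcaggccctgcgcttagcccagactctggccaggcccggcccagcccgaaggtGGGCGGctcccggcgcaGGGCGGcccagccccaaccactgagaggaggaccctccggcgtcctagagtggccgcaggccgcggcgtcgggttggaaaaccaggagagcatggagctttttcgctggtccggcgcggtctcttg
LINC00205: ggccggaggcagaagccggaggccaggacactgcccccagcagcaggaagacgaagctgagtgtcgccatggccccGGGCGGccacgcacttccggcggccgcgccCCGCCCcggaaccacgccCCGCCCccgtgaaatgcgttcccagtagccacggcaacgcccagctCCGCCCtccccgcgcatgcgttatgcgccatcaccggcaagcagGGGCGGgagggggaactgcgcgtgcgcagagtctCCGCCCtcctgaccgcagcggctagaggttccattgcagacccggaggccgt
LINC01560: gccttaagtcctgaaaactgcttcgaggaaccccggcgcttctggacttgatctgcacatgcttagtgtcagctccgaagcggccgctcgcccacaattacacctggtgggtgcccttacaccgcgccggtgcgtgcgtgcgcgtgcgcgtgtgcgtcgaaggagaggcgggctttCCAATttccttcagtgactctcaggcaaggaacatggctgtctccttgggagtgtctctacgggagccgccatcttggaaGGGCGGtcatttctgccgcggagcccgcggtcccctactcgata

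All 4 windows were rich in CpG, with 25 CpG dinucleotides for LINC01123, 23 for LINC01023, 34 for LINC00205 and 27 for LINC01560. The median over the first listed promoter of all 27305 symbols was 14, and over the member promoters that were found it was 18. LINC00205 held 6 GC boxes, LINC01023 held 2 and LINC01560 held 1 beside 1 CCAAT box, and LINC01123 held neither motif. A promoter was found for 83 member symbols with a single Ensembl ID, and 47 of them (56.6%) held a GC box against 44.6% of all promoters. A CCAAT box stood in 39 of the 83 (47.0%) against 35.7% of all. The TATA box (TATAAA) was present in 13 (15.7%) against 12%, the E-box (CACGTG) in 9 (10.8%) against 7.43%, and the cyclic AMP response element (TGACGTCA) in 4 (4.82%) against 1.98%. No motif contains another. Among promoters of members that fell, 14 of 24 held a GC box, and among those of members that rose 5 of 9 did. These matches are a description of the letters in the windows. The members had to reach a mean of 1 CPM, while all promoters were taken without a limit on expression. The shares therefore compare sets selected in unlike ways.

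The members were mostly rare RNAs. Their mean CPM had a median of 3.01, with 44 members between 1 and 2 CPM, 37 between 2 and 5, 37 between 5 and 20 and 8 above 20. CPM is not corrected for transcript length, so it orders read support and not molecules. Of the 126, 116 reached 1 CPM in both arms, 8 in DMSO alone and 2 with STM2457 alone. Within an arm the median coefficient of variation over the 4 libraries was 8.59% in DMSO and 8.76% with STM2457. Together the members took 0.0999% to 0.105% of the gene counts of a DMSO library and 0.0839% to 0.0892% of an STM2457 library, so that the arms did not overlap.

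The RNA libraries held 43112223 to 51425432 gene counts. ERCC spike-ins were 0.389% to 0.408% of all counts in DMSO and 0.415% to 0.466% with STM2457, highest in STM2457 replicate 4. METTL3 RNA, which checks nothing about a catalytic inhibitor, was at 75.7 ± 6.71 CPM in DMSO and 83.3 ± 6.71 CPM with STM2457 (SD, n = 4; edgeR adjusted p = 0.104), and passed as higher within replicates 1 and 2 (log2 0.14, edgeR adjusted p = 0.0147) and within replicates 3 and 4 (log2 0.12, edgeR adjusted p = 0.0449). All 6 neural and renal progenitor genes used as HEK293 markers were above 1 CPM, with a summed level of 496 to 519 CPM in DMSO and 574 to 597 CPM with STM2457. Of the fibroblast, blood and epithelial carcinoma markers 2 of 7, 1 of 5 and 2 of 5 reached 1 CPM. Their summed levels were 18.1 to 23.1, 2.09 to 2.39 and 7.78 to 9.08 CPM in DMSO and 17.6 to 19.2, 1.98 to 2.13 and 6.73 to 8.01 CPM with STM2457. HBB and KRT5 were at 0 in every library, and CD3E, COL1A2 and KRT14 were at 0 in 7 of 8. The part of these shifts in the results was not tested.

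The first comparison asked how the LINC RNAs changed when METTL3 was inhibited. More members fell than rose. In edgeR's quasi-likelihood test with TMM scaling, which sets most genes to no change, 39 of the 126 members (31.0%) were lower with STM2457, 18 (14.3%) were higher and 69 passed in neither direction at an adjusted p of 0.05 over all 17807 genes tested. Over all genes tested, 21.6% were lower and 26.2% higher. The median log2 fold change of the members was -0.06, against 0.00 over all genes. All 126 members passed the filter on low counts. Libraries of the arms did not overlap for 55 members (43.7%), 35 of them with lower and 20 with higher fitted change, against 44.7% of all genes. The decreases also reached further: 10 members fell at least 2-fold and no member rose as far, and at 1.5-fold or more the counts were 20 lower and 4 higher. Over all 17807 genes tested the counts of called genes at 1.5-fold or more were 987 lower and 1225 higher. Among the 14040 of these with a mean of at least 1 CPM they were 469 lower and 1028 higher. No such count over all genes was made at 2-fold. Counts at 1.5-fold or more in other classes of long noncoding RNA are given below.

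Scaling to the ERCC spike-ins shifted the estimates downward, with a median log2 change over all genes of -0.19. On that scale 65 members (51.6%) were lower, 8 (6.35%) higher and 53 in neither class, with a median of -0.26. The shares over all genes were 47.1% lower and 12.1% higher. All 39 members lower under TMM were also lower under ERCC scaling, and 26 more joined them. Of the 18 higher under TMM, 8 remained higher and 10 were not called, and no member was called in opposite directions by these 2 fits. ERCC scaling changes only the library sizes and so lowers the estimates of all genes by a like amount. That the decreases were kept is therefore no separate support for them. Over the 14040 genes that also had a mean of at least 1 CPM, 23.2% were lower and 31.6% higher under TMM, and 52.4% and 14.3% with ERCC scaling. The members' share of decreases thus stood above that of these 14040 genes under TMM and close to it with ERCC scaling. Their share of increases was below that of these genes under both. The 14040 genes are not matched in level, since 8348 of them had a mean of at least 20 CPM against 8 of the members. Shares by band of level, given below, did not all differ in the same direction.

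**Figure D1:**
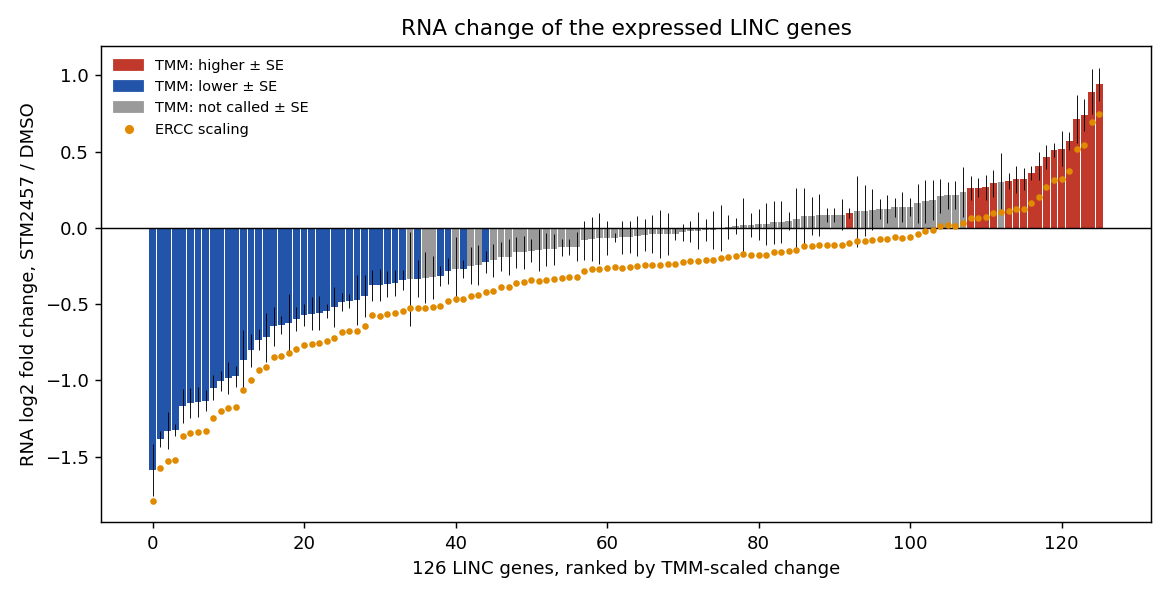
RNA log2 fold change (vertical axis) of the 126 LINC genes, ranked by the TMM-scaled change (horizontal axis). Bars show the TMM estimate with its standard error (black lines), coloured by edgeR call (39 lower, 18 higher, 69 not called), and orange points show the same gene under ERCC scaling; the points lie below the bar ends along the whole ranking.

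LINC00205, a gene of chromosome 21 between POFUT2 and COL18A1, was the most strongly counted of the large decreases. It was at 51.2, 49.3, 50.9 and 51.9 CPM (TMM-scaled) in DMSO replicates 1 to 4 and at 20.5, 18.9, 21.4 and 20.4 CPM in STM2457 replicates 1 to 4. Every STM2457 library lay below every DMSO library. The fall was 2.50-fold (log2 -1.32, SE 0.04, edgeR adjusted p = 1.03e-10), and log2 -1.52 with ERCC scaling. LINC01694, also on chromosome 21 and next to the folate carrier gene SLC19A1, behaved alike in size. With DMSO, LINC01694 had 19.4, 20.9, 20.5 and 21.0 CPM, and with STM2457 7.49, 8.07, 8.25 and 7.59 CPM. The arms were far apart relative to the spread within them, and the fall was 2.60-fold (log2 -1.38, SE 0.05, edgeR adjusted p = 4.49e-10).

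LINC00648 on chromosome 14 had the largest fitted decrease, on few reads. For LINC00648, DMSO libraries read 2.36, 2.42, 2.81 and 2.37 CPM and STM2457 libraries 0.792, 0.547, 0.799 and 1.18 CPM. These levels rest on 26 to 133 reads per library. The arms did not overlap, with DMSO replicate 3 standing above the other DMSO libraries and STM2457 replicate 4 above the other treated ones. The fall was 3.01-fold (log2 -1.58, SE 0.17, edgeR adjusted p = 6.45e-06). LINC03072 was similarly rare. CPM values of LINC03072 were 3.72, 2.91, 3.75 and 3.96 in DMSO and 1.28, 1.28, 1.55 and 1.61 with STM2457. All treated libraries were below all DMSO libraries, for a fall of 2.51-fold (log2 -1.33, SE 0.12, edgeR adjusted p = 1.65e-06).

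LINC00680 on chromosome 6 and LINC00938 on chromosome 12 fell less far, from higher levels. LINC00680 measured 12.9, 10.8, 11.7 and 12.4 CPM across DMSO replicates and 5.50, 5.09, 5.64 and 5.6 CPM across STM2457 replicates. LINC00938 stood at 14.0, 16, 14.9 and 14.1 CPM in the 4 DMSO libraries and at 7.39, 7.74, 6.51 and 7.74 CPM in the 4 STM2457 libraries. In both genes the lowest DMSO library was above the highest STM2457 library. The log2 change was -1.13 (SE 0.07, edgeR adjusted p = 2.88e-08) for LINC00680 and -1.0 (SE 0.07, edgeR adjusted p = 9.20e-08) for LINC00938. LINC01719 on chromosome 1 lies beside NBPF10, a member of a duplicated gene family, where reads may be shared between copies. The DMSO libraries had 6.75, 6.37, 6.60 and 5.81 CPM of LINC01719 and the STM2457 libraries 3.17, 2.54, 3.31 and 2.51 CPM. The arms did not overlap (log2 -1.15, SE 0.10, edgeR adjusted p = 7.42e-07).

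LINC01560 on the X chromosome shares its span with the zinc-finger gene ZNF41. With DMSO, LINC01560 had 2.52, 2.61, 2.77 and 3.15 CPM, and with STM2457 1.14, 1.11, 1.34 and 1.33 CPM. Its libraries separated by arm, with log2 -1.17 (SE 0.11, edgeR adjusted p = 2.18e-06), while ZNF41 itself had log2 0.07 (adjusted p = 0.197). LINC02893 on chromosome 9 and LINC00857 on chromosome 10 complete the 10 largest decreases. For LINC02893, DMSO libraries read 4.35, 3.79, 3.60 and 3.69 CPM and STM2457 libraries 1.73, 1.74, 1.55 and 1.97 CPM. CPM values of LINC00857 were 4.63, 4.97, 5.14 and 4.78 in DMSO and 2.17, 2.50, 2.19 and 2.57 with STM2457. Neither gene had overlapping arms, and the log2 changes were -1.14 (SE 0.10, edgeR adjusted p = 9.10e-07) and -1.05 (SE 0.08, edgeR adjusted p = 3.38e-07). The remaining 29 members that fell had log2 changes from -0.98 to -0.22. They include LINC00467, which RefSeq also lists as ASAP for a mitochondrial micropeptide. LINC00467 measured 20.1, 21.1, 20.9 and 20.7 CPM across DMSO replicates and 14.3, 15.5, 14.2 and 15.3 CPM across STM2457 replicates. Its log2 change was -0.48 (SE 0.04, edgeR adjusted p = 1.85e-06), with no overlap between arms. LINC00461, the host gene of a miR-9 precursor, also fell. LINC00461 stood at 1.70, 2.12, 1.54 and 1.61 CPM in the 4 DMSO libraries and at 1.24, 1.11, 1.27 and 1.5 CPM in the 4 STM2457 libraries. Its arms lay close together without overlap, and its log2 change was -0.45 (SE 0.14, edgeR adjusted p = 0.0160). LINC00467 and LINC00461 were chosen for their known products after their values were seen.

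Increases were fewer and smaller. LINC02986 on chromosome 8, next to the zinc-finger gene ZBTB10, had the largest. The DMSO libraries had 2.15, 1.70, 1.59 and 1.92 CPM of LINC02986 and the STM2457 libraries 3.51, 3.20, 3.97 and 3.54 CPM. The treated libraries were all above the DMSO libraries, by 1.93-fold (log2 0.94, SE 0.11, edgeR adjusted p = 1.27e-05), and the log2 change was 0.74 with ERCC scaling. LINC02976 on chromosome 6 shares its span with the CNPY3-GNMT readthrough gene. With DMSO, LINC02976 had 1.14, 1.54, 1.78 and 1.44 CPM, and with STM2457 2.44, 2.31, 3.03 and 3.17 CPM. Its arms did not overlap (log2 0.89, SE 0.15, edgeR adjusted p = 0.000241). LINC01123 on chromosome 2 rose 1.67-fold. For LINC01123, DMSO libraries read 2.25, 2.46, 2.39 and 2.06 CPM and STM2457 libraries 4.34, 3.28, 4.07 and 3.60 CPM. The lowest treated library was above the highest DMSO library (log2 0.74, SE 0.10, edgeR adjusted p = 7.13e-05).

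LINC01023 on chromosome 5, close to the inclusion threshold, was below 1 CPM in DMSO. CPM values of LINC01023 were 0.553, 0.802, 0.868 and 0.991 in DMSO and 1.28, 1.35, 1.29 and 1.35 with STM2457. The treated libraries were tightly grouped and above all DMSO libraries, of which replicate 1 was lowest (log2 0.72, SE 0.16, edgeR adjusted p = 0.00231). With replicates 3 and 4 alone it did not pass (log2 0.51, adjusted p = 0.0721). LINC01976 on chromosome 17 also rose. LINC01976 measured 5.6, 5.91, 5.84 and 5.36 CPM across DMSO replicates and 8.34, 8.14, 8.88 and 8.39 CPM across STM2457 replicates. The gap between arms exceeded the range within either (log2 0.57, SE 0.06, edgeR adjusted p = 4.90e-06).

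LINC01128 and LINC00115 are neighbours on chromosome 1, both placed between OR4F16 and SAMD11, and both rose. The same interval also holds LINC02593, which was called lower (log2 -0.63), and LINC01409, which was not called (log2 -0.04). LINC01128 stood at 26.1, 25.1, 26.0 and 25.3 CPM in the 4 DMSO libraries and at 36.0, 33.7, 38.5 and 37.9 CPM in the 4 STM2457 libraries. The DMSO libraries had 1.30, 1.26, 1.57 and 1.46 CPM of LINC00115 and the STM2457 libraries 2.17, 1.74, 1.90 and 2.17 CPM. Neither had overlapping arms. The log2 change was 0.51 (SE 0.04, edgeR adjusted p = 9.75e-07) for LINC01128 and 0.52 (SE 0.12, edgeR adjusted p = 0.00241) for LINC00115. LINC00115 did not pass with replicates 3 and 4 alone (log2 0.43, adjusted p = 0.0631). LINC01569 on chromosome 16, beside the transcription factor gene TFAP4, rose by log2 0.47 (SE 0.08, edgeR adjusted p = 0.000299). With DMSO, LINC01569 had 3.51, 3.55, 3.72 and 4.00 CPM, and with STM2457 4.73, 4.83, 5.50 and 5.38 CPM. LINC02980 on chromosome 6 and LINC00888 complete the 10 largest increases. For LINC02980, DMSO libraries read 3.47, 3.23, 3.47 and 4.02 CPM and STM2457 libraries 4.71, 4.81, 4.11 and 5.13 CPM. CPM values of LINC00888 were 14.9, 13.5, 14.3 and 14.5 in DMSO and 17.6, 18.1, 18.7 and 19.0 with STM2457. In each the treated libraries were all higher. Their log2 changes of 0.40 (SE 0.09, edgeR adjusted p = 0.00255) and 0.36 (SE 0.05, edgeR adjusted p = 4.18e-05) did not pass with ERCC scaling (log2 0.20, adjusted p = 0.0775, and log2 0.16, adjusted p = 0.0555). The other 8 members that rose had log2 changes of 0.10 to 0.32, and none of these 8 passed as higher with ERCC scaling.

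**Figure D2:**
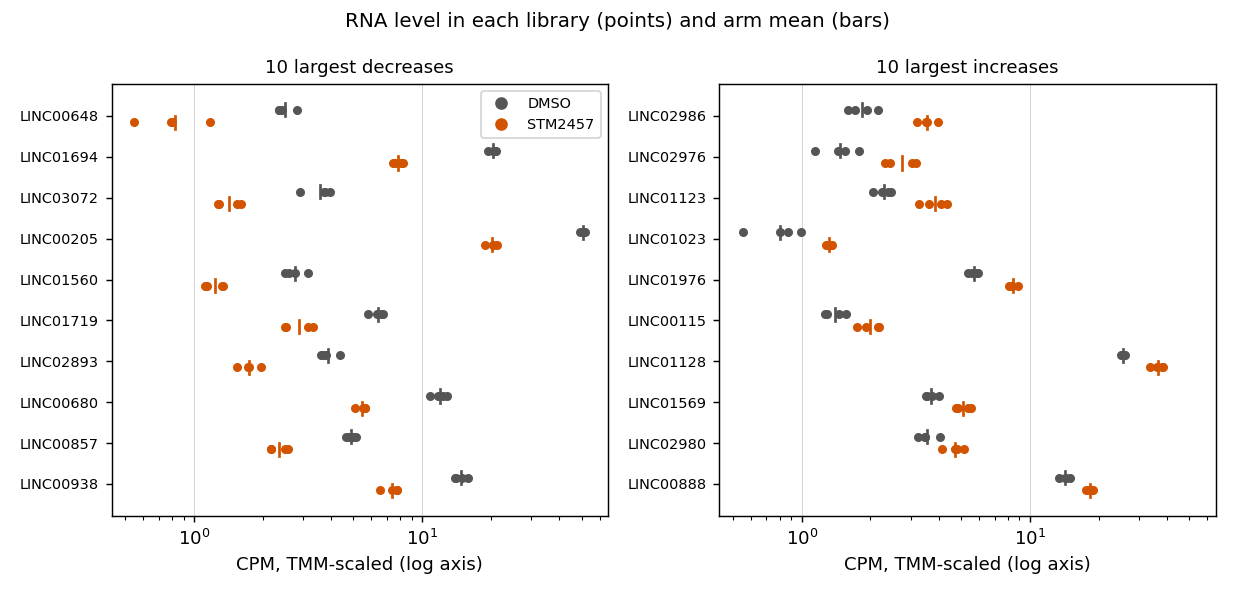
TMM-scaled CPM (horizontal log axis) of the 10 largest decreases (left) and 10 largest increases (right) in each of the 8 RNA libraries; points are libraries, short vertical bars the arm means, grey DMSO and orange STM2457. The arms do not overlap in any of the 20 genes, which were picked for their change in these same libraries. Over all genes tested the arms did not overlap in 44.7%. LINC00205 is the only decrease near 50 CPM in DMSO.

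The members with the most reads changed little, apart from LINC00205, LINC01128 and LINC00641. LINC02693, formerly C17orf51 in RefSeq, had the highest CPM of all members. LINC02693 measured 149, 146, 144 and 145 CPM across DMSO replicates and 166, 151, 155 and 152 CPM across STM2457 replicates. The treated libraries were above the DMSO libraries by a small margin, with log2 0.10 (SE 0.03, edgeR adjusted p = 0.0246) under TMM and -0.10 under ERCC scaling (adjusted p = 0.121). The TMM change no longer passed when DMSO replicate 3 (0.09), DMSO replicate 4 (0.09) or STM2457 replicate 1 (0.07) was left out. LINC00641 on chromosome 14, next to HNRNPC, fell. LINC00641 stood at 63.1, 62.7, 61.2 and 60.5 CPM in the 4 DMSO libraries and at 48.2, 54.5, 40.9 and 51.4 CPM in the 4 STM2457 libraries. STM2457 replicate 3 was lowest and the arms did not overlap (log2 -0.34, SE 0.07, edgeR adjusted p = 0.000986).

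LINC02210, which overlaps the LINC02210-CRHR1 readthrough gene on chromosome 17, had overlapping arms. The DMSO libraries had 64.3, 62.8, 64.8 and 66.8 CPM of LINC02210 and the STM2457 libraries 63.7, 59.0, 66.3 and 62.5 CPM. Its log2 change was -0.04 (SE 0.04, edgeR adjusted p = 0.4) under TMM, and it passed as lower with ERCC scaling (log2 -0.24, adjusted p = 0.00122). LINC02381 lies at the end of the HOXC cluster, between HOXC4 and SMUG1. With DMSO, LINC02381 had 46.0, 44.0, 45.6 and 45.8 CPM, and with STM2457 42.6, 43.5, 44.5 and 43.1 CPM. The arms overlapped, with log2 -0.06 (SE 0.03, edgeR adjusted p = 0.105) under TMM and -0.26 (adjusted p = 0.000457) with ERCC scaling.

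LINC00294 on chromosome 11, LINC01278 on the X chromosome and LINC00632 on the X chromosome did not pass under TMM. For LINC00294, DMSO libraries read 24.1, 21.6, 22.3 and 24.8 CPM and STM2457 libraries 24.9, 23.0, 23.5 and 22.2 CPM. CPM values of LINC01278 were 20.4, 20.5, 20.3 and 20.8 in DMSO and 23.0, 22, 19.9 and 21.8 with STM2457. LINC00632 measured 18.6, 16.5, 18.5 and 19.8 CPM across DMSO replicates and 19.3, 19.8, 20.1 and 21.5 CPM across STM2457 replicates. All 3 had overlapping arms, with log2 changes of 0.01 (SE 0.05), 0.08 (SE 0.05) and 0.14 (SE 0.06), and edgeR adjusted p of 0.877, 0.165 and 0.0725. With ERCC scaling the signs turned, to -0.18 (adjusted p = 0.0321), -0.11 (adjusted p = 0.138) and -0.06 (adjusted p = 0.475). LINC01278 passed as higher under TMM without STM2457 replicate 3 (log2 0.12), and LINC00632 did so without DMSO replicate 4 (log2 0.17). LINC00632 is the locus whose RNA is the source of the circular RNA CDR1as. Its gene count in a poly(A)-selected library does not separate linear from circular forms, and no value is given for the circle.

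Over all 69 members that did not pass under TMM, log2 changes ran from -0.33 to 0.30 with a median standard error of 0.11, against 0.09 in those that passed. By level, the share of members called lower was 18.2% at 1 to 2 CPM, 27.0% at 2 to 5, 51.4% at 5 to 20 and 25.0% above 20 CPM. Over all genes at the same levels it was 20.0%, 22.9%, 23.3% and 23.7%. The share called higher was 4.55%, 21.6%, 16.2% and 25.0% of members against 12.6%, 18.4%, 29.5% and 37.5% of all genes. In the band of 5 to 20 CPM, which held 37 members, the median log2 change of the members was -0.22 and that of all genes 0.01. The last band holds only 8 members.

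**Figure D3:**
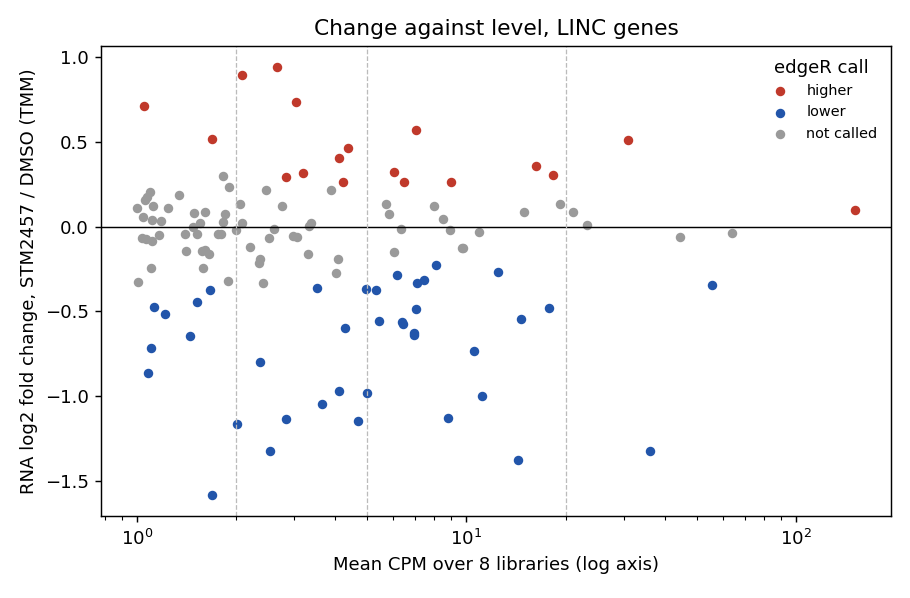
TMM-scaled RNA log2 fold change (vertical axis) against mean CPM over the 8 libraries (horizontal log axis), 1 point per LINC gene, coloured by edgeR call; dashed lines mark 2, 5 and 20 CPM. Decreases beyond log2 -1 occur from 1.69 CPM (LINC00648) to 36.1 CPM (LINC00205), and 19 of 37 members between 5 and 20 CPM were called lower.

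The second principal component of all genes (12.1% of variance, after 61.6% on the component that separates the arms) separated replicates 1 and 2 from replicates 3 and 4 in both arms; the labels name no batch. With replicates 1 and 2 alone 15 members were higher and 40 lower, and with replicates 3 and 4 alone 10 were higher and 28 lower. The members called in both subsets numbered 37, and all 37 had the same sign in each. Both subsets are parts of the same 8 libraries as the full fit, so this agreement is a description and no separate support. No share over all genes is set beside these subset counts.

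Other classes of long noncoding RNA with a mean of at least 1 CPM showed different balances. Of 330 antisense genes (symbols ending in -AS and digits), 143 (43.3%) were lower and 37 (11.2%) higher, with a median log2 change of -0.16. Of 160 divergent transcripts (symbols ending in -DT, which start opposite to a coding gene), 78 (48.8%) were lower and 12 (7.5%) higher, with a median of -0.24. The antisense genes with the smallest p were ZBTB11-AS1 (log2 -1.56, SE 0.06), NOP14-AS1 (log2 -1.38, SE 0.05), ATP6V0E2-AS1 (log2 -2.30, SE 0.09) and FBXL19-AS1 (log2 -1.45, SE 0.06). Those among the divergent transcripts were TFIP11-DT (log2 -1.81, SE 0.07), UBA6-DT (log2 -1.01, SE 0.05), HK2-DT (log2 -1.64, SE 0.08) and CHKB-DT (log2 -1.24, SE 0.06). The SNHG genes, which host small nucleolar RNAs in their introns, went the other way, with 19 of 22 higher and 1 lower, and the smallest p in SNHG16 (log2 0.62, SE 0.02), SNHG3 (log2 0.74, SE 0.03), SNHG4 (log2 0.63, SE 0.03) and SNHG19 (log2 0.86, SE 0.05). With ERCC scaling the antisense, divergent and SNHG genes had 203, 107 and 1 lower and 11, 2 and 10 higher. The LINC members thus had a share of decreases between those of the SNHG genes and of the antisense genes. Among all 1364 tested genes that RefSeq classes as lncRNA, 452 (33.1%) were lower and 130 (9.53%) higher under TMM, with a median of -0.18. With ERCC scaling 672 (49.3%) of them were lower and 55 (4.03%) higher. This class had no limit of 1 CPM, and LINC symbols were not left out of it. Called genes at 1.5-fold or more under TMM were 76 lower and 2 higher among the antisense genes and 47 and 2 among the divergent transcripts. They were 0 and 6 among the SNHG genes and 304 and 35 among the RefSeq lncRNA genes. An excess of decreases, also at 1.5-fold or more, was thus not particular to the LINC members. The difference between these lists was not tested.

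**Figure D4:**
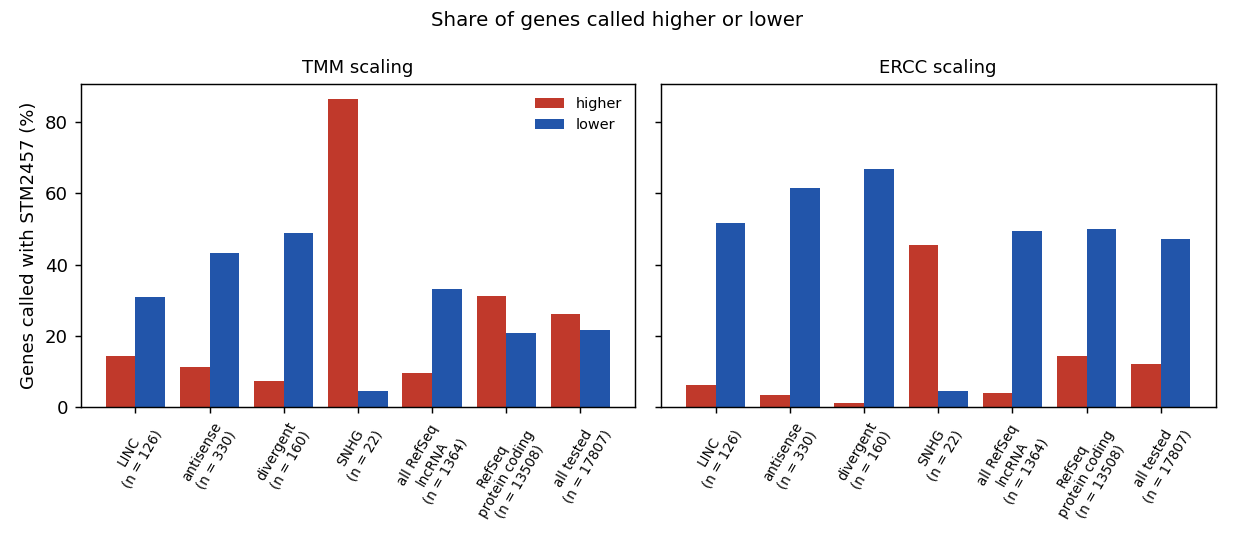
Percent of genes called higher (red) or lower (blue) with STM2457 (vertical axis) in each class of gene (horizontal axis, with the number tested), with TMM scaling (left) and ERCC scaling (right). LINC genes had 31.0% lower and 14.3% higher under TMM, antisense genes 43.3% and 11.2%, all RefSeq lncRNA 33.1% and 9.53%, and all tested genes 21.6% and 26.2%.

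Most members lay apart from coding genes in the RefSeq annotation, where 120 members matched by symbol. Of 118 placed symbols with a single Ensembl ID, 16 overlapped the span of a coding gene and 63 overlapped the span of any other RefSeq gene. The library kit keeps strand, but the strand setting of the counting is not given in the sources used here, so reads of overlapping genes may be mixed. For 89 members the nearest coding gene was also tested. Of the 27 of these that fell, the neighbour rose in 10, fell in 6 and did not pass in 11. Of the 12 that rose, the neighbour rose in 6, fell in 1 and did not pass in 5, and of the 50 not called it rose in 27, fell in 8 and did not pass in 15. With neighbour calls from ERCC scaling the balance beside the 27 turned to 4 higher and 13 lower, beside the 12 it was 4 and 4, and beside the 50 it was 16 and 13. Among all 13508 tested RefSeq protein-coding genes, 4225 (31.3%) were higher and 2816 (20.8%) lower under TMM. With ERCC scaling 1956 of these coding genes were higher and 6760 lower. Whether the neighbours differed from these coding genes was not tested, so no conclusion on a relation between LINC genes and neighbours is drawn from the counts. The pairs are not all separate, since SAMD11 was the nearest coding gene of LINC02593, LINC01128 and LINC00115. Across the 89 pairs the log2 changes had r = 0.06 and rho = 0.06, a description over genes of the same libraries.

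Among neighbours of the largest decreases, GAS1, a growth-arrest cell-surface protein gene beside LINC02893, rose by log2 0.91 (edgeR adjusted p = 2.51e-09). ARID2, a chromatin-remodelling subunit gene beside LINC00938, rose by log2 0.44 (edgeR adjusted p = 1.64e-05), and SLC19A1 beside LINC01694 rose by log2 0.31 (edgeR adjusted p = 1.22e-06). GAS1 and ARID2 were also higher with ERCC scaling (log2 0.72 and 0.25), and SLC19A1 was not called there (log2 0.11). POFUT2 and COL18A1 on either side of LINC00205 had log2 changes of -0.01 and -0.07 and did not pass under TMM, and both passed as lower with ERCC scaling (log2 -0.20 and -0.27). PRIM2, a primase subunit gene beside LINC00680, and ANXA11 beside LINC00857 fell under both scalings, under TMM by 0.17 and 0.083 on the log2 scale (edgeR adjusted p = 0.027 and 0.0312). Among the increases, ZBTB10 rose together with LINC02986 (log2 0.43, edgeR adjusted p = 1.02e-06) and TRIM38 together with LINC02980 (log2 0.78, edgeR adjusted p = 7.81e-08), while FER beside LINC01023 fell by 0.27 on the log2 scale (edgeR adjusted p = 0.0054).

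**Figure D5:**
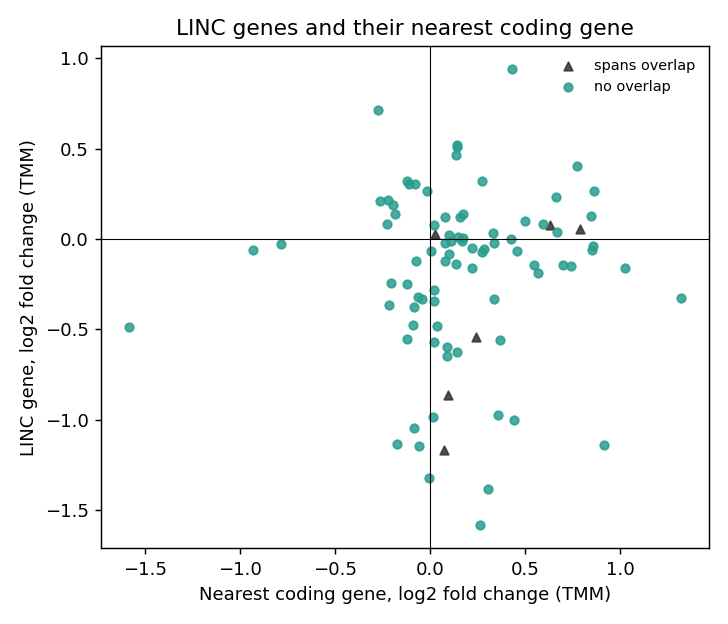
TMM-scaled log2 fold change of each LINC gene (vertical axis) against that of its nearest coding gene (horizontal axis). The 89 pairs are those members whose nearest coding gene was tested, and triangles mark pairs whose spans overlap. The LINC genes with decreases beyond log2 -1 have neighbours on both sides of 0, from -0.17 (PRIM2) to 0.91 (GAS1).

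The genes that degrade or export nuclear RNA were counted in the same fit. Of 30 nuclear decay factors, 11 (36.7%) were higher and 9 (30.0%) lower, with a median log2 change of -0.01, beside 26.2% and 21.6% of all genes. Under ERCC scaling the counts were 5 higher (16.7%) and 19 lower (63.3%), beside 12.1% and 47.1%. All these factors except C1D (19.6 CPM) had a mean of at least 20 CPM. Among all genes at that level 37.5% were higher and 23.7% lower under TMM, and 16.5% and 57.1% under ERCC scaling. The smallest p belonged to the exosome subunit genes EXOSC4 (log2 0.77, SE 0.04), EXOSC6 (log2 -0.37, SE 0.03) and EXOSC3 (log2 0.35, SE 0.03) and to NRDE2 (log2 0.38, SE 0.03), a partner of the exosome helicase. Of 19 gene IDs for 18 export and retention factors, 6 (31.6%) were higher and 4 (21.1%) lower under TMM, and 3 (15.8%) and 12 (63.2%) under ERCC scaling. Here the smallest p belonged to NXT1, the cofactor of the mRNA exporter NXF1 (log2 1.32, SE 0.03), NUP153, a nuclear pore protein (log2 0.69, SE 0.04), the nuclear m6A reader YTHDC1 (log2 0.52, SE 0.05) and SAFB, a nuclear matrix protein (log2 0.19, SE 0.03). SAFB had log2 -0.00 with ERCC scaling, while the other 3 of these 4 remained higher.

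The second comparison asked whether ribosome footprints on a LINC RNA changed. LINC02693 was the only member among the 12224 genes of the deposited translation table. Its normalized footprint signal was 805 and 1002 in the DMSO libraries and 722 and 683 with STM2457, from 250, 208, 190 and 175 footprint reads recovered from that signal. Both treated libraries were below both DMSO libraries. The log2 change was -0.35 (SE 0.15, limma adjusted p = 0.106 over 12043 genes, of which 14.1% passed), so the decrease did not pass. In the authors' deposited table the translation efficiency of LINC02693, the ratio of footprint to RNA signal, was 1.87 in DMSO and 1.35 with STM2457, a log2 change of -0.47 where the median of the table was 0.00. Footprint counts for the other members were not analysed here.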

How the data were processed

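Poly(A) RNA was sequenced in 8 libraries and ribosome footprints in 4. The authors deposited raw read counts per gene and ERCC spike-in. STAR 2.7.3a, Subread 2.0.3 with featureCounts, UMI-tools 1.1.2, SAMtools 1.10 and GRCh38.p12 are named, per the submitters' processing notes, without roles; the strand setting and annotation release are not given in the sources used here. The authors also deposited a footprint signal per gene, normalized by 1 factor per library (100% of values came out as whole reads within 0.1), and, in the same table, translation efficiencies as a ratio with its log2 change; its columns named WT were taken as DMSO from the labels.

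Counts without ERCC were tested in edgeR 4.0.16 (R 4.3.3; filterByExpr, TMM, quasi-likelihood, Benjamini-Hochberg over all 17807 genes), and again with ERCC totals as scaling. Standard errors are the log2 change over the root of the F statistic. Footprints were tested in limma 3.58.1 on log2(signal + 1) for genes with a mean signal of at least 10; edgeR on the recovered reads called 1703 genes. The code was tested on simulated data. The members and lists were chosen with earlier results of these data known. Named genes are the 10 largest changes each way, the 8 highest members, the 5 highest not called, those at the threshold and the 4 smallest p of each list. Same-numbered libraries had correlations of deviations of 0.15, 0.23, 0.15 and 0.08, so the numbers were not taken as pairs. Alternatives were DESeq2 1.42.0, other scalings, filters, thresholds, subsets of libraries and a replicate block.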

Additional observations from a re-analysis of the deposited data

Results flagged for a closer look

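Of 60 arms of 4 libraries examined (30 named members), 1 held a library far from its group by Dixon's criterion, where chance gives about 1 in 20 (3 of 60). LINC00648 was at 2.81 CPM in DMSO replicate 3, while the other DMSO libraries were at 2.36 to 2.42 CPM. Without that library its log2 change was -1.53, against -1.58 with it.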

How the results depend on the processing

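ERCC scaling gave 8 higher and 65 lower members (18 and 39 under TMM), with a median log2 change of -0.26 and 2159 genes higher and 8383 lower overall (4669 and 3842 under TMM). With ERCC scaling and STM2457 replicate 4 left out the values were 8, 56, -0.25, 2464 and 7517. With the replicate block and ERCC scaling they were 9, 67, -0.26, 2338 and 9023, and LINC02693, higher under TMM, passed there as lower (edgeR adjusted p = 0.0469). Replicates 3 and 4 alone gave 10 higher under TMM, and 5 higher and 41 lower with ERCC scaling. Total counts without TMM factors gave a median of -0.15 and 6358 genes lower overall.

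As a hint from the data only, the replicate block under TMM gave 20 members higher and 41 lower and kept all 57 calls, and LINC00342, not called without it (edgeR adjusted p = 0.323), passed as lower (log2 -0.26, edgeR adjusted p = 0.0195); DMSO replicate 4 and STM2457 replicates 1, 3 and 4 correlated most with a library of another number. The footprint change of LINC02693 was -0.35 with the replicate block (limma adjusted p = 0.0930).

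Leaving out 1 library at a time gave 16 to 19 members higher and 34 to 41 lower under TMM, 6 to 8 and 56 to 69 with ERCC scaling, and -0.51 to -0.20 for the footprint change. The 39 decreases were all kept with DESeq2, without a filter on low counts and with total counts.

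Changes near 0 turned sign. ERCC scaling lowered the estimates by a like amount, with a median over all genes of 0.00 under TMM and -0.19 with ERCC scaling. Small increases under TMM turned negative by this shift of scale. The cause of the turns in other settings was not tested. The values with ERCC scaling, that without STM2457 replicate 4, and that with the block were -0.099, -0.055 and -0.10 for LINC02693, -0.18, -0.13 and -0.18 for LINC00294, -0.11, -0.085 and -0.12 for LINC01278 and -0.062, -0.060 and -0.060 for LINC00632. LINC00294 was also at -0.00335 with DESeq2, -0.00331 with its size factors in edgeR, -0.046 with replicates 3 and 4, -0.081 with total counts and -0.022 to 0.041 leaving out 1 library. LINC01278 was at -0.0099 with total counts. Over the named members and these alternatives, 438 comparisons kept direction and call, 20 turned sign, 16 lost and 12 gained a call.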

Other observations

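LINC01605 appears under 2 Ensembl IDs on chromosome 8. ENSG00000253161.5 was at 8.22 ± 0.454 CPM in DMSO and 6.61 ± 0.437 CPM with STM2457 (SD, n = 4; log2 -0.32, edgeR adjusted p = 0.0017), and its arms did not overlap. ENSG00000253414.3 was at 8.39 ± 0.346 and 8.65 ± 0.480 CPM (SD, n = 4; log2 0.04, edgeR adjusted p = 0.591), with overlapping arms. The difference between the IDs was not tested.

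In 4 members (3.17%) the mean of replicates 3 and 4 exceeded that of replicates 1 and 2 by over 0.5 on the log2 scale in both arms, against 0.919% of the 14040 genes of at least 1 CPM that passed this limit in either direction. They were picked by this pattern. The 14040 genes are not matched in level, since 8348 of them had a mean of at least 20 CPM against 8 of the members. The shares were not compared at like levels. LINC02593 was at 7.03, 6.11, 9.71 and 10.4 CPM in DMSO and 4.08, 4.50, 7.45 and 5.6 CPM with STM2457, so the arms overlapped, while each pair of replicates fell by a like amount (log2 -0.63 in replicates 1 and 2, -0.63 in replicates 3 and 4). LINC00342 was at 3.15, 3.41, 5.40 and 5.56 CPM in DMSO and 2.96, 2.77, 4.91 and 3.90 CPM with STM2457, and its call depended on the fit: it did not pass under TMM (log2 -0.27, edgeR adjusted p = 0.323) and passed as lower with ERCC scaling (log2 -0.46, edgeR adjusted p = 0.0162). LINC01089 was at 4.57, 4.29, 7.20 and 6.66 and at 5.10, 4.58, 7.36 and 6.93 CPM, and LINC01355 at 1.98, 1.56, 2.48 and 4.64 and at 1.87, 1.49, 3.01 and 2.17 CPM.

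By chromosome, 4 of the 5 members on chromosome 21 fell and none rose, and on chromosome 7 it was 6 of 11 with none rising. Chromosome 1 had 16 members, of which 5 fell and 2 rose. These chromosomes were picked after their values were seen, and no test was made. No share over all genes of a chromosome was counted, and 31.0% of all members fell. The counts therefore show no pattern by chromosome. The chromosome 21 members that fell are LINC01694, LINC00205, LINC01547 (log2 -0.54) and LINC00649 (log2 -0.28), and LINC01424 (log2 -0.32) did not pass.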
